A study of Mus musculus with 6 samples.

Results

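Cytotoxic T cells kill by moving secretory granules to the contact with a target cell and fusing them with the plasma membrane. The genes described here encode the machinery of that step, *Rab27a*, *Unc13d*, *Stx11*, *Stxbp2*, *Stx7*, *Vamp7*, *Vamp8*, *Srgn*, *Lyst* and *Ap3b1*, and were matched by gene name in the deposited files. Of these 10 genes, 9 were found among the 54446 genes of the files, and all 9 passed the filter on low values that left 14991 genes for testing. *Vamp7*, a vesicle SNARE, was not analysed here, because the name was matched by none of the entries.

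RNA-Seq was performed on 6 libraries of CD8+ T cells taken from the spleens of 8-week-old wild type C57BL/6 mice by negative selection, with 2 libraries for each of 3 groups. Unstimulated cells were fresh cells with 0 h of stimulation and no magnet. Control cells were stimulated for 72 h on plate-bound antibodies against CD3 and CD28 without magnets, and SMF-treated cells were stimulated in the same way for 72 h on magnets that gave a static magnetic field (SMF) of 0.3 T. The sources do not say whether the 2 libraries of a group came from separate mice or cultures, so that the p values measure only the spread between these libraries.

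The granule of a cytotoxic T cell is a modified lysosome in which serglycin, a proteoglycan, is stored together with perforin and granzymes. AP-3 and LYST act while the granule is formed, RAB27A and MUNC13-4 (the product of *Unc13d*) dock and prime it at the membrane, and syntaxin 11 with its partner MUNC18-2 (the product of *Stxbp2*) serves its fusion. Inherited loss of RAB27A, MUNC13-4, syntaxin 11, MUNC18-2, LYST or the AP-3 beta subunit impairs this secretion, in several cases with hemophagocytic disease.

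Levels are given as FPKM, a level scaled to the length of the transcript and the size of the library, summed over the transcripts of a gene. The files hold no read counts, and depth was taken as the bases covered by reads on annotated transcripts. Unstimulated cells had 67.4 and 132 Mb of covered bases, control cells 64.4 and 172 Mb, and SMF-treated cells 259 and 227 Mb. The folder dates in the file headers placed replicate 1 of unstimulated and control cells in June 2017, replicate 2 of both in November 2017 and both SMF libraries in October 2018. Of these 3 dates, 0 held SMF and control libraries together, so that the field and the date cannot be told apart. Unstimulated libraries likewise shared no date with the SMF libraries, so that SMF-treated and unstimulated cells also differ in date. Genes with several exons that encode proteins took 67.7% and 67.2% of all FPKM in the SMF libraries and between 46.7% and 48.6% in the other 4 libraries, and the part of this difference in the results was not tested.

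The genes listed as CD8 T cell markers, most of which other T cells share, were present in every library. Their summed FPKM over 9 genes was 925 and 1078 in unstimulated, 602 and 943 in control and 1328 and 1216 in SMF-treated cells, and *Cd247*, a chain of the T cell receptor complex, had the highest mean over all libraries, although not the highest value in the SMF libraries or in unstimulated replicate 2. *Cd8a*, named here for its values, had 92.5 and 105 FPKM in unstimulated cells, 35.5 and 60.0 in control cells and 192 and 186 in SMF-treated cells. Myeloid, B cell and NK cell markers were higher in the unstimulated libraries. The 11 myeloid markers summed to 247 and 249 FPKM there, against 47.0 and 54.8 in control and 47.5 and 52.7 in SMF-treated cells. Their gene with the highest mean was *Csf1r*, which accounted for 41.1 to 53.8 FPKM in the stimulated libraries, while *Lyz2* and *Tyrobp* were listed at 0 in all 4 of these and 7 of the 11 markers were at 0 in each of them. The 8 B cell markers, of which *Cd79a* had the highest mean, summed to 201 and 150 FPKM in unstimulated cells, 28.6 and 9.23 in control cells and 6.02 and 3.06 in SMF-treated cells. The 7 natural killer (NK) cell markers summed to 122 and 60.5, 28.6 and 5.73, and 3.67 and 6.74 FPKM. Their gene with the highest mean, *Gzma*, which T cells also express, had 77.7 and 38.2 FPKM in unstimulated cells and 18.3 in control replicate 1 and was listed at 0 in the other 3 libraries. Several of the exocytosis genes are also expressed in myeloid and NK cells, and the part of these cells in the differences from unstimulated cells was not tested. In these bulk libraries, fewer cells of a type and less RNA per cell cannot be told apart.

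**Figure D1:**
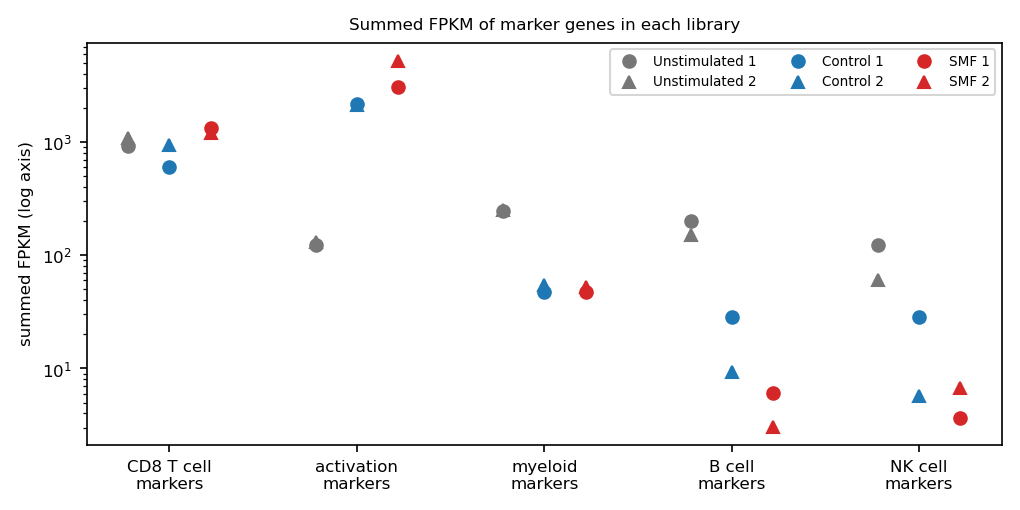
Summed FPKM of the genes of 5 marker lists (x axis) in each of the 6 libraries, on a log axis, with the group shown by colour and the replicate by symbol. Myeloid, B cell and NK cell markers lay higher in both unstimulated libraries than in all 4 stimulated libraries, and activation markers lay lower.

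Of the 9 exocytosis genes, *Ap3b1* and *Stx11* rose from unstimulated to control cells and 0 fell. *Stx11* averaged 0.422 FPKM in unstimulated cells, and passed the filter of 1 FPKM only through its stimulated libraries. Its calls against unstimulated cells, and its place in the counts here and for SMF-treated cells, are therefore a description and not a test. A gene was said to rise or fall when its fold change was at least 2 and its unadjusted p at most 0.05, the thresholds named in the methods of the study, in a limma fit of log2(FPKM + 1) over all 6 libraries; fold changes on this scale understate the changes of low genes. Among all genes tested, 12.3% rose and 12.6% fell in this comparison. The median log2 fold change of the 9 genes was -0.18, against -0.05 over all genes. The libraries did not overlap for 6 of the 9 genes, 3 of them higher and 3 lower in control cells, where 24.8% and 26.6% of all genes did so. Without adjustment 2 of the 9 genes and 26.9% of all genes had a p no higher than 0.05. With limma's p adjusted by Benjamini-Hochberg, 1 of the 9 genes, *Ap3b1*, was at or below 0.05, as were 8.48% of all genes.

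In SMF-treated compared with unstimulated cells, *Srgn*, *Rab27a*, *Stx11* and *Ap3b1*, 4 of the 9 genes, rose and 0 fell, with 22.4% of all genes rising and 14.8% falling; the call of *Rab27a* was lost when either SMF library was left out. The median was 0.78, against 0.27 over all genes. For 6 genes the SMF libraries lay above both unstimulated libraries and for 2 below them, as for 39.7% and 26% of all genes. Without adjustment 4 of the 9 genes and 39.1% of all genes had a p no higher than 0.05. *Srgn*, *Stx11* and *Ap3b1* had an adjusted p of at most 0.05 in limma with Benjamini-Hochberg adjustment, 3 of the 9 genes, against 23.6% of all genes. SMF-treated and unstimulated libraries had no date in common, so that treatment and date cannot be told apart here. Both comparisons use the same unstimulated libraries, so that their values are set side by side without a comparison of their gene lists.

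Between SMF-treated and control cells, *Rab27a* and *Srgn* were higher in SMF-treated cells at these thresholds and 0 of the 9 genes were lower, with 12.5% of all genes higher and 5.72% lower. Only *Rab27a* was called at equal medians, at one protein-coding sum, without SMF replicate 1 and without control replicate 1. The median was 0.70, against 0.32 over all genes. The libraries of 5 genes lay higher and those of 1 gene lower in SMF-treated cells without overlap, where 37.4% and 17.4% of all genes did so. With the limma p adjusted by Benjamini-Hochberg, 0 of the 9 genes passed 0.05 against 0.0267% of all genes, and 2 of the 9 had an unadjusted p of at most 0.05, as did 21.1% of all genes. The split of all genes depended on the scaling: 1868 were higher and 857 lower as deposited, 877 and 1441 with every library brought to one median, and 859 and 1356 with one sum of FPKM over protein-coding genes with several exons. Markers of the cells themselves moved in the same direction: 3 of 9 CD8 T cell markers (median 0.83) and 3 of 9 activation markers (median 0.80) were called higher and 0 lower in SMF-treated than control cells, and their part in the values of *Rab27a* and *Srgn* was not tested. For SMF-treated against unstimulated cells the split of all genes was 3351 and 2226, 2756 and 2694, and 2309 and 3010 under the same scalings.

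**Figure D2:**
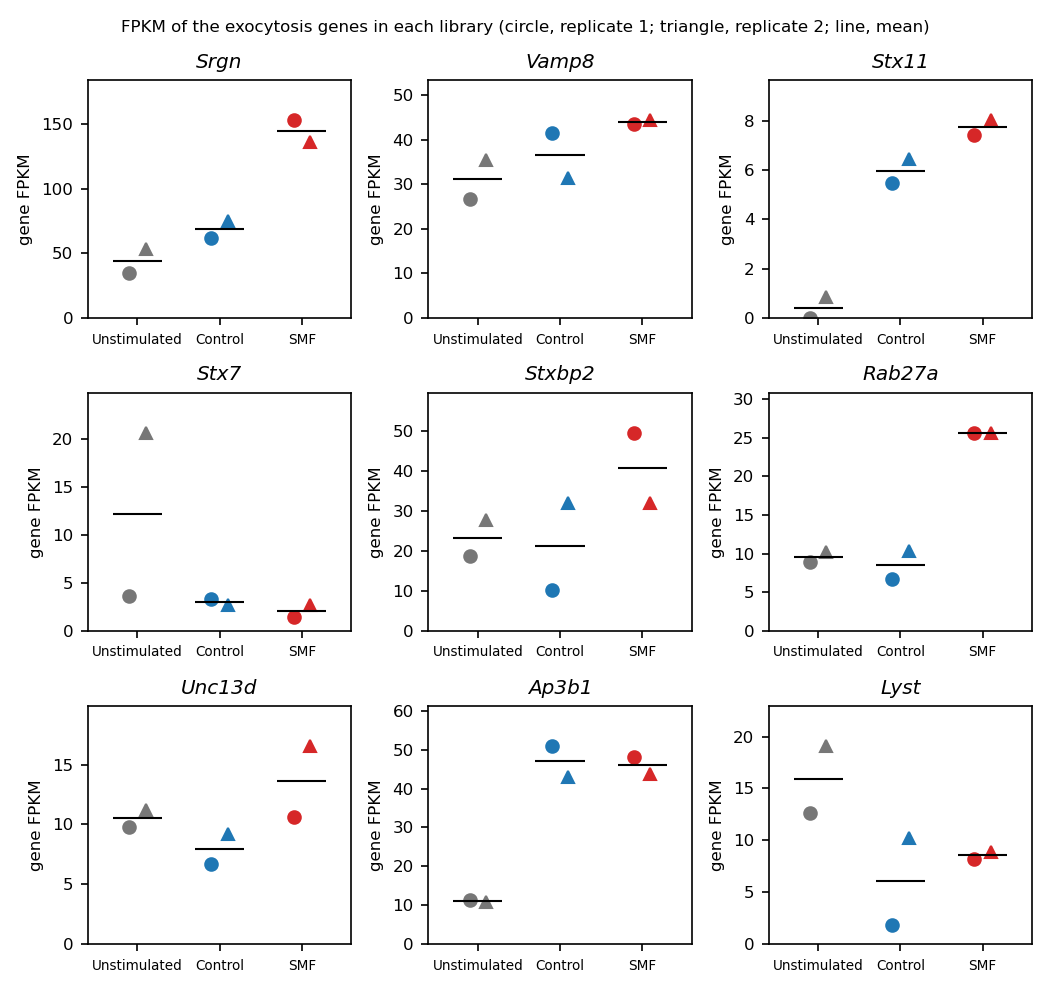
FPKM of each of the 9 exocytosis genes (y axis, from 0) in the libraries of the 3 groups (x axis), with circles for replicate 1, triangles for replicate 2 and a line at the mean. *Srgn* and *Rab27a* lay highest in the SMF libraries, *Ap3b1* and *Stx11* were low in unstimulated cells, and the replicates of *Stx7*, *Stxbp2* and *Lyst* lay far apart in 1 group or more.

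*Srgn* encodes serglycin, whose negatively charged chains serve the storage of granzyme B in the granule. It was the most abundant of the 9 genes in each of the 6 libraries. The gene (ENSMUSG00000020077.14) lies on the minus strand at chr10:62493833-62527451 of GRCm38. RefSeq gives 2 starts for it, and the windows from 250 bases before to 50 bases after each start are printed below because the deposited transcripts differ in which start they use; capitals mark matches, on either strand, to the motifs described after them.
Srgn, downstream start, chr10:62507708-62508007, minus strand: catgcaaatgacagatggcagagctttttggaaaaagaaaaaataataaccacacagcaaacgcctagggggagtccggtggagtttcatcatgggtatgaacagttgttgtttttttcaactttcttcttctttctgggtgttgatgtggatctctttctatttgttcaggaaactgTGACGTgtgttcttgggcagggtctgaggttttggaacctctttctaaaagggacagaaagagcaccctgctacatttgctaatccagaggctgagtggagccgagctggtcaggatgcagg
Srgn, upstream start, chr10:62527396-62527695, minus strand: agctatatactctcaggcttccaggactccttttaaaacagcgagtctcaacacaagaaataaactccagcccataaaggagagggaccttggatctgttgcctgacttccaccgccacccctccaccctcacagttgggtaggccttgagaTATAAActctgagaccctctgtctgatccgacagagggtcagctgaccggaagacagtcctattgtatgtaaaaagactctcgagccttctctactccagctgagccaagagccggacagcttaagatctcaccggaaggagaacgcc
The capitals in the downstream window are TGACGT, the core of a cAMP response element, which 7.51% of all 32851 RefSeq windows of GRCm38.p6 hold, and those in the upstream window are TATAAA, which 13.6% hold. The other motifs searched were GGGCGG (GC box, in 35.7% of windows), CACGTG (E box, 7.15%) and TGANTCA (AP-1 element, 7.81%), and 0 of the 11 windows of the exocytosis genes held TGANTCA. Windows were found for 8 of the 10 genes, all but *Unc13d* and *Vamp7*. A match is a description of these letters and not of a bound site.

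*Srgn* had 34.9 and 53.4 FPKM in unstimulated cells, 62.0 and 75.1 FPKM in control cells and 154 and 137 FPKM in SMF-treated cells. The 3 groups did not overlap, and both SMF libraries stood apart from the other 4. Compared with control cells, *Srgn* was 2.11-fold higher in SMF-treated cells, a log2 fold change of 1.07 (standard error 0.31, limma adjusted p = 0.167 with Benjamini-Hochberg adjustment). It lay below the 2-fold threshold without SMF replicate 1 (0.99), without control replicate 1 (0.94), at equal medians (0.73) and at one protein-coding sum (0.71). Against unstimulated cells the log2 fold change was 1.72 (standard error 0.31, limma adjusted p = 0.0143) in SMF-treated cells and 0.65 (standard error 0.31, limma adjusted p = 0.242) in control cells. Within the 2 dates that held both unstimulated and control cells, *Srgn* was 0.81 and 0.48 higher in control cells on the log2 scale.

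All FPKM of *Srgn* came from transcripts annotated as protein coding. The transcript of 938 bases from the downstream start, ENSMUST00000020271.12, carried 52.8 FPKM in unstimulated replicate 2, 59.9 and 68.3 in control cells and 152 and 132 in SMF-treated cells, and it was listed at 0 in unstimulated replicate 1. There a transcript of 346 bases that begins before the downstream start, ENSMUST00000159020.1, had 12.4 FPKM, 35.5% of the value. It had 1.80 FPKM in SMF replicate 2 and 6.01 in control replicate 2. In unstimulated replicate 1 the transcript of 1727 bases from the upstream start had 22.5 FPKM, although its own first exon had 0 reads per base. That exon was above 0 in 1 of the 6 libraries, control replicate 2, with 1.81 reads per base, summed over the exons annotated there. Around the first exon of the downstream start, the coverage of all annotated exons was summed. This takes in exons of other transcripts that reach beyond that first exon. The sums were 0 and 6.23 reads per base in unstimulated cells, 3.28 and 8.01 in control cells and 8.74 and 3.03 in SMF-treated cells. Summed in the same way over the last exons, which the transcripts share in part, coverage was 2.39 and 9.55, 5.72 and 13.4, and 56.3 and 44.6 reads per base in the same order. These coverages are not scaled for library size.

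**Figure D3:**
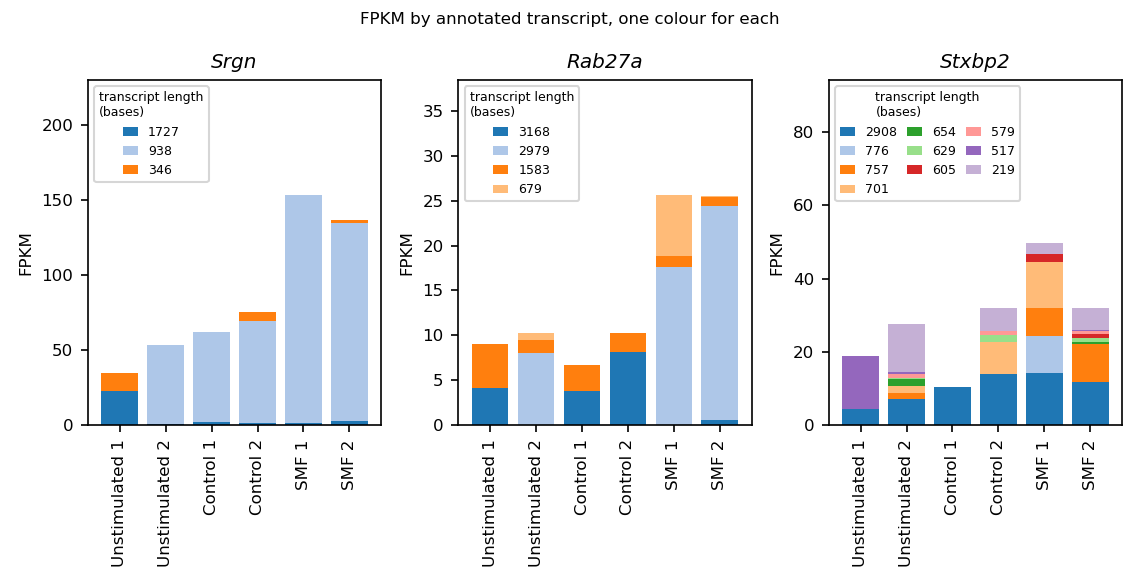
FPKM of *Srgn*, *Rab27a* and *Stxbp2* (y axis) in each library (x axis), stacked by annotated transcript, with the length of each transcript in bases in the key. A transcript of 938 bases carried most of *Srgn* outside unstimulated replicate 1, *Rab27a* was divided among 4 transcripts, and short transcripts made up much of *Stxbp2*.

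*Rab27a* encodes the small GTPase that brings granules to the plasma membrane and binds MUNC13-4 there. The gene (ENSMUSG00000032202.11) lies on the plus strand at chr9:73044854-73097629 of GRCm38, and the window at its first RefSeq start is shown because the transcripts with most reads begin near it; the capitals are GGGCGG on the opposite strand.
Rab27a, chr9:73044560-73044859, plus strand: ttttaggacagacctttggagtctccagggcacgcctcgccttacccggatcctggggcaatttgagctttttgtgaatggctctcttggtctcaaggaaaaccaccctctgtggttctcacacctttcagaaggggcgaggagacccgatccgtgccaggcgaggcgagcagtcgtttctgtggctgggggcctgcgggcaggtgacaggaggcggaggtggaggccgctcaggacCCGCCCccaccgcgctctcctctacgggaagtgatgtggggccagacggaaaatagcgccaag
*Rab27a* had 8.97 and 10.2 FPKM in unstimulated cells, 6.72 and 10.3 FPKM in control cells and 25.7 and 25.6 FPKM in SMF-treated cells. Unstimulated and control libraries overlapped, and both SMF libraries were higher than all 4. Compared with control cells, SMF-treated cells had a 2.85-fold higher level, with a log2 fold change of 1.51 (standard error 0.38, limma adjusted p = 0.15 with Benjamini-Hochberg adjustment). The log2 fold change ran from 1.17 to 1.79 over the other settings and with each library left out, and the gene passed the same thresholds in all 16 of these. Between control and unstimulated cells it was -0.18 (standard error 0.38, limma adjusted p = 0.803), and it was -0.37 and 0.01 within the 2 dates. Against unstimulated cells, SMF-treated cells were 1.33 higher (standard error 0.38, limma adjusted p = 0.0508). This call was lost at one protein-coding sum (0.85) and, at an unmoved log2 fold change of 1.33, without either SMF library.

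The reads of *Rab27a* were divided among 4 annotated transcripts. The transcript of 2979 bases (ENSMUST00000034722.4) had 17.6 and 23.9 FPKM in SMF-treated cells and 8.01 in unstimulated replicate 2, and was listed at 0 in the other 3 libraries. In those 3 libraries, unstimulated replicate 1 and both control libraries, the transcript of 3168 bases had 4.10, 3.74 and 8.14 FPKM. Both encode protein, and together the protein-coding transcripts had 4.10 and 8.01 FPKM in unstimulated, 3.74 and 8.14 in control and 17.6 and 24.4 in SMF-treated cells. The remaining FPKM came from transcripts with a retained intron, one of which had 6.86 FPKM in SMF replicate 1 and 0.128 in SMF replicate 2. *Gm27186*, on the same strand, shares 149 bases of *Rab27a* exons, 3.84% of them, and was listed at 0 in all libraries except SMF replicate 2.

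*Unc13d*, which encodes the priming factor MUNC13-4, was called in 0 of the 3 comparisons. The gene (ENSMUSG00000057948.12) lies at chr11:116062095-116077961 on the minus strand. It had 9.78 and 11.2 FPKM in unstimulated cells, 6.64 and 9.17 in control cells and 10.6 and 16.6 in SMF-treated cells. Both control libraries were below the libraries of the other groups. The log2 fold change was 0.70 (standard error 0.42, limma adjusted p = 0.382) between SMF-treated and control cells and -0.38 (standard error 0.42, limma adjusted p = 0.605) between control and unstimulated cells. With the covered bases of a gene set over 1 fixed length, an alternative added after the data were seen, these were 1.14 and -1.03, also without a call. In control replicate 1 only 0.833 kb of covered bases stood behind the value, and 4.67 of its 6.64 FPKM lay on a transcript of 416 bases.

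*Stx11* encodes syntaxin 11, a target membrane SNARE of the granule fusion step. The gene (ENSMUSG00000039232.12) lies at chr10:12938209-12964298 on the minus strand. Its window is shown because it rose from a level at or near 0; the capitals are GGGCGG on either strand.
Stx11, chr10:12964210-12964509, minus strand: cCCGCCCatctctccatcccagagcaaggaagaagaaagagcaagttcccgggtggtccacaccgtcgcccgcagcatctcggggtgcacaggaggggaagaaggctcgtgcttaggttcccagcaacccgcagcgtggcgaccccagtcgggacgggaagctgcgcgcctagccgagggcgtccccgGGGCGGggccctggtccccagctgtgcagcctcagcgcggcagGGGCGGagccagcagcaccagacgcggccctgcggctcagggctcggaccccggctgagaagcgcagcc
*Stx11* was listed at 0 in unstimulated replicate 1 and had 0.844 FPKM in unstimulated replicate 2, where 0.612 kb was covered. It had 5.48 and 6.45 FPKM in control cells and 7.44 and 8.06 FPKM in SMF-treated cells. Every stimulated library exceeded both unstimulated libraries. The log2 fold change was 2.35 (standard error 0.54, limma adjusted p = 0.0503 with Benjamini-Hochberg adjustment) in control cells and 2.69 (standard error 0.54, limma adjusted p = 0.0194) in SMF-treated cells against unstimulated cells. With a pseudocount of 0.1 in place of 1 these were 4.30 and 4.67, since one unstimulated library is at 0, so that the size of the rise depends on the pseudocount. Within the 2 dates control cells were 2.70 and 2.01 higher. All of its FPKM lay on the transcript of 4173 bases, ENSMUST00000042861.6. The SMF libraries lay just above the control libraries, with a log2 fold change of 0.33 (standard error 0.54, limma adjusted p = 0.76), which was -0.0093 with all libraries brought to one median.

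*Stxbp2* encodes MUNC18-2, the chaperone and fusion partner of syntaxin 11. The gene (ENSMUSG00000004626.14) lies at chr8:3630955-3643644 on the plus strand. It had 18.8 and 27.7 FPKM in unstimulated cells, 10.3 and 32.0 in control cells and 49.7 and 31.9 in SMF-treated cells. The control libraries lay far apart and overlapped with both other groups. SMF-treated cells were 1.08 above control cells on the log2 scale (standard error 0.58, limma adjusted p = 0.334), and leaving out control replicate 2 gave 1.85 and leaving out replicate 1 gave 0.31. Of its 15 annotated transcripts 10 were above 0 in some library, and those that encode protein held 23.1% and 25.6% of the FPKM in unstimulated, 100% and 43.7% in control and 28.3% and 36.2% in SMF-treated cells. The transcript of 2908 bases, the only coding one above 0, had 4.34 and 7.08, 10.3 and 14.0, and 14.1 and 11.6 FPKM in the 3 groups. With the fixed gene length, control cells were 0.64 above rather than 0.30 below unstimulated cells on the log2 scale (limma adjusted p = 0.358 in place of 0.782, and from 0.251 to 1 over the alternatives). In the same setting SMF-treated cells were 0.46 above control cells and 1.10 above unstimulated cells, the latter a call that the deposited FPKM did not give.

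*Vamp8*, a vesicle SNARE of late endosomes and granules, was called in 0 of the 3 comparisons. The gene (ENSMUSG00000050732.9) lies at chr6:72385223-72390703 on the minus strand. It had 26.8 and 35.4 FPKM in unstimulated cells, 41.4 and 31.5 in control cells and 43.5 and 44.5 in SMF-treated cells. The SMF libraries were the highest, and unstimulated and control libraries overlapped. The difference of SMF-treated from control cells was 0.28 on the log2 scale (standard error 0.31, limma adjusted p = 0.636), and it was -0.064 at equal medians.

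*Stx7* encodes syntaxin 7, a SNARE of late endosomes and lysosomes, and went the other way from *Stx11* in its mean values. The gene (ENSMUSG00000019998.6) lies at chr10:24149302-24190222 on the plus strand. It had 3.63 and 20.7 FPKM in unstimulated cells, 3.33 and 2.71 in control cells and 1.46 and 2.70 in SMF-treated cells. Unstimulated replicate 2 stood far above the other 5 libraries, which were all low. The log2 fold change was -1.32 (standard error 0.80, limma adjusted p = 0.352) in control and -1.73 (standard error 0.80, limma adjusted p = 0.165) in SMF-treated cells. For control cells it was -2.44 without unstimulated replicate 1, when the gene was called lower, and -0.21 without unstimulated replicate 2. For SMF-treated cells these were -2.85, also a call, and -0.62. Transcripts with a retained intron, which do not encode the protein, held 9.87 and 5.88 FPKM of the high value, and the coding transcript of 3435 bases had 3.63 and 4.95 FPKM in unstimulated cells, 0 and 2.71 in control cells and 1.46 and 2.70 in SMF-treated cells. Only 0.202 kb was covered in control replicate 1.

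*Ap3b1*, the beta subunit of the AP-3 adaptor, which sorts proteins to lysosomes and granules, rose most clearly with stimulation. The gene (ENSMUSG00000021686.6) lies at chr13:94358960-94566317 on the plus strand; the window at its start is shown because both stimulated groups rose to overlapping levels, and the capitals are GGGCGG on the opposite strand.
Ap3b1, chr13:94358710-94359009, plus strand: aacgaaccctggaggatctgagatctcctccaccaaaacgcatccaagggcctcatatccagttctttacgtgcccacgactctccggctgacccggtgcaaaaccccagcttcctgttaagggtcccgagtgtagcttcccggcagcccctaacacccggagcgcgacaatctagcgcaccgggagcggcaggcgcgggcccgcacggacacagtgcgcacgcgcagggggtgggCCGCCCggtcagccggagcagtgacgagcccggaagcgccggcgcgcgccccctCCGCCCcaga
*Ap3b1* had 11.2 and 10.7 FPKM in unstimulated cells, 51.0 and 43.0 FPKM in control cells and 48.2 and 43.9 FPKM in SMF-treated cells. All 4 stimulated libraries were high, both unstimulated libraries were low, and control and SMF libraries overlapped. The rise was 4.0-fold in control cells, a log2 fold change of 2.0 (standard error 0.30, limma adjusted p = 0.0182 with Benjamini-Hochberg adjustment), and 3.93-fold in SMF-treated cells, a log2 fold change of 1.97 (standard error 0.30, limma adjusted p = 0.00961). Over the alternatives run, the adjusted p in control cells ran from 0.00321 to 0.0943. Within the 2 dates control cells were 2.09 and 1.91 higher. SMF-treated and control cells differed by a log2 fold change of -0.03 (standard error 0.30, limma adjusted p = 0.997). The transcript of 4021 bases carried all FPKM in 5 libraries and 42.6 of 43.9 FPKM in SMF replicate 2. The covered bases were 4.07 and 7.49 kb in unstimulated cells, 17.2 and 37.5 kb in control cells and 60.3 and 46.9 kb in SMF-treated cells.

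*Lyst*, which encodes a large BEACH domain protein that limits the size of lysosomes and granules, had its lower values after stimulation. The gene (ENSMUSG00000019726.12) lies at chr13:13590397-13778803 on the plus strand. It had 12.6 and 19.1 FPKM in unstimulated cells, 1.82 and 10.2 in control cells and 8.19 and 8.91 in SMF-treated cells. Both unstimulated libraries were above the other 4, and the control libraries lay on either side of the SMF libraries. Control cells were 1.56 below unstimulated cells on the log2 scale, a log2 fold change of -1.56 (standard error 0.70, limma adjusted p = 0.223), and -2.27 and -0.84 within the 2 dates. With the replicate number as a block over all libraries, *Lyst* was called lower (limma adjusted p = 0.168). The replicate number marks these dates for unstimulated and control libraries only. Both SMF libraries share a single date, so that the block is not one of date alone. The value rested on control replicate 1, in which 2.02 kb of covered bases spread over 29.9% of its exon bases; the log2 fold change was -0.56 without that library and -2.55 without control replicate 2. The full-length coding transcript of 13181 bases had 7.2 and 7.69 FPKM in unstimulated, 1.82 and 4.02 in control and 7.0 and 4.45 in SMF-treated cells.

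**Figure D4:**
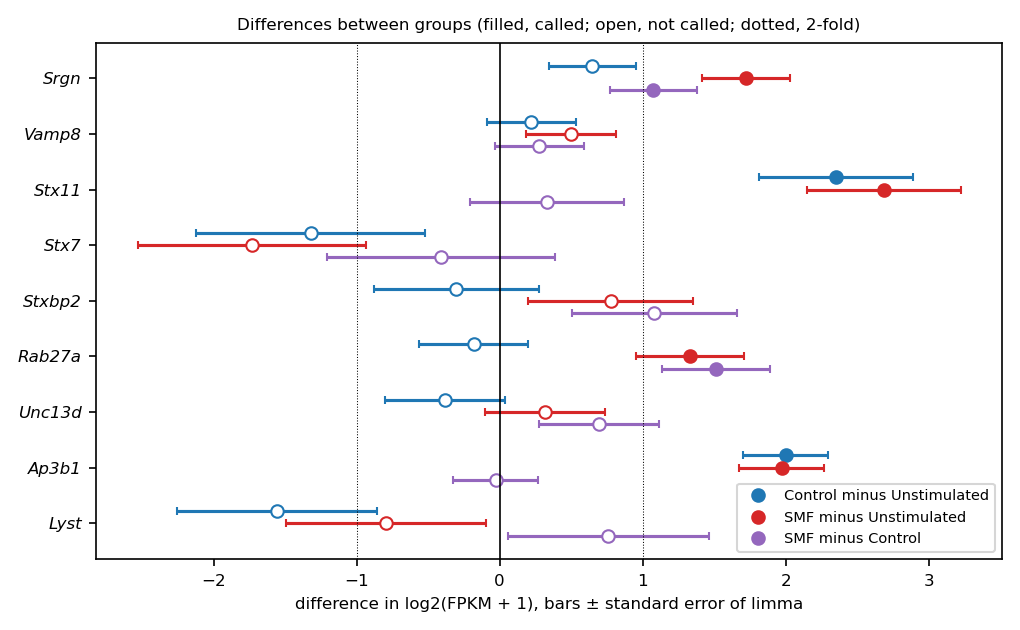
Difference in log2(FPKM + 1) of each of the 9 genes (x axis) for the 3 comparisons, with bars of 1 standard error from limma and dotted lines at 2-fold. Filled points passed both thresholds: *Stx11* and *Ap3b1* in both comparisons with unstimulated cells, *Srgn* and *Rab27a* in both comparisons of SMF-treated cells.

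By level, *Srgn* came first in every library. In control cells the order of means was *Srgn* (68.5 ± 9.30 FPKM, SD), *Ap3b1* (47.0 ± 5.70), *Vamp8* (36.4 ± 7.0), *Stxbp2* (21.2 ± 15.3), *Rab27a* (8.5 ± 2.52), *Unc13d* (7.91 ± 1.78), *Lyst* (6.03 ± 5.95), *Stx11* (5.96 ± 0.686) and *Stx7* (3.02 ± 0.439). *Ap3b1* and *Vamp8* lay within the sum of their SDs of each other, as did each neighbouring pair from *Vamp8* to *Stx11*. In SMF-treated cells the means were 145 ± 12.0 for *Srgn*, 46.0 ± 3.07 for *Ap3b1*, 44.0 ± 0.684 for *Vamp8*, 40.8 ± 12.5 for *Stxbp2*, 25.6 ± 0.0696 for *Rab27a* and 13.6 ± 4.21 FPKM for *Unc13d*, followed by *Lyst* (8.55 ± 0.509), *Stx11* (7.75 ± 0.432) and *Stx7* (2.08 ± 0.878). In unstimulated cells they were 44.2 ± 13.1 for *Srgn*, 31.1 ± 6.12 for *Vamp8*, 23.2 ± 6.30 for *Stxbp2*, 15.9 ± 4.59 for *Lyst*, 12.2 ± 12.1 for *Stx7*, 11.0 ± 0.346 for *Ap3b1*, 10.5 ± 1.03 for *Unc13d*, 9.60 ± 0.893 for *Rab27a* and 0.422 ± 0.597 FPKM for *Stx11*, each over 2 libraries. There each neighbouring pair from *Srgn* to *Rab27a* lay within the sum of its SDs, and *Stx11* stood apart. In SMF-treated cells *Ap3b1* and *Vamp8*, *Vamp8* and *Stxbp2*, and *Lyst* and *Stx11* lay within the sum of their SDs of each other, and the other neighbouring pairs did not. *Ap3b1* had ranks 5 and 7 among the 9 genes in the unstimulated libraries and came next after *Srgn* in both control libraries and below one other gene besides *Srgn* in each SMF library.

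The counts of the related lists that follow stand beside 12.3% of all genes rising and 12.6% falling from unstimulated to control cells, and 12.5% higher and 5.72% lower in SMF-treated than control cells. Genes that averaged below 1 FPKM in either group compared passed the filter only through other groups. Their calls, and their place in these counts, are therefore a description and not a test. Among the calls named below, these include *Exph5* (0.837 FPKM), *Fasl* (0.557) and *Stx12* (0.226) in unstimulated cells. They also include *Rab37* (0.209 FPKM), *Stx2* (0.548) and *Rab11fip3* (0.841) in control cells. Of 21 cargo genes 13 were tested, of which 4 rose and 3 fell from unstimulated to control cells, and the median was -0.36 on the log2 scale. *Gzmb*, the main granzyme of activated T cells, rose from 10.2 and 11.7 FPKM to 1494 and 1565 FPKM, a log2 fold change of 7.01 (limma adjusted p = 0.00184), and *Nkg7*, a granule membrane protein, rose by 2.15 (limma adjusted p = 0.0327). *Prf1*, which encodes perforin and is added here for its role, rose from 3.07 and 12.8 to 25.9 and 28.6 FPKM and had 35.7 and 44.2 FPKM in SMF-treated cells. *Fasl*, which encodes Fas ligand, rose by 2.14, while *Gzma* fell by 3.66, *Ctsb* by 1.45 and *Ctsw*, a cathepsin of cytotoxic cells, by 1.07 on the log2 scale. With the field 1 cargo gene, *Gzmb*, was higher than in control cells and 0 were lower, with a median of 0.71. *Gzmb* had 2282 and 4283 FPKM in SMF-treated cells, a log2 fold change of 1.03 (limma adjusted p = 0.179).

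Among 11 tested of 22 RAB27 effectors and related Rab proteins, 1 rose and 2 fell in control cells, with a median of -0.13. *Exph5*, which encodes a RAB27 effector, rose from 1.12 and 0.558 to 38.2 and 28.1 FPKM, a log2 fold change of 4.22 (limma adjusted p = 0.009), and had 14.0 and 18.0 FPKM in SMF-treated cells. *Rab37* fell by 3.47 and *Rab11fip3*, an effector of RAB11, by 2.26. Between SMF-treated and control cells 0 of the 11 genes passed in limma and the median was 0.25. *Rab27b*, the close relative of *Rab27a*, was listed at 0 in all libraries but SMF replicate 1, where it had 0.212 FPKM.

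Of 30 tested among 37 other SNAREs and their regulators, 2 rose and 2 fell in control cells, with a median of -0.42. *Vps45*, a regulator of endosomal SNAREs, rose by 2.96 and *Stx12*, an endosomal syntaxin, by 1.36, while *Stx2* fell by 2.35 and *Vamp1* by 1.15. In SMF-treated compared with control cells 3 were higher, a smaller share than the 12.5% of all genes, and 0 lower, and 26 of the 30 had a log2 fold change above 0, with a median of 0.73, where 60.2% of all genes tested were above 0. *Vps33a* was higher by 2.12, *Stx12* by 1.62 and *Ykt6* by 1.43.

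The proteins that act with AP-3 and LYST in the formation of lysosome-related organelles comprised 33 genes, of which 28 were tested. In control cells 3 rose and 4 fell, with a median of -0.25. Of the other subunits of the AP-3 complex, *Ap3s1* rose by 1.86, from 1.59 and 7.82 to 15 and 17.7 FPKM, and *Ap3m1* by 1.3, from 20.9 and 22.5 to 55.4 and 54.0 FPKM. *Ap3d1*, the delta subunit, had 34.7 and 22.9 FPKM in unstimulated and 8.78 and 18.9 in control cells, a log2 fold change of -1.07 that was not called (limma adjusted p = 0.23). *Ap3m2* had 2.45 and 4.31 FPKM in unstimulated and 1.02 and 0.861 in control cells, a log2 fold change of -1.14. *Ap3s2* had a log2 fold change of -0.08, and neither gene was called. *Bloc1s2*, a subunit of the BLOC-1 complex, rose by 2.66, and *Hps3* fell by 2.57, *Wdfy4* by 2.41 and *Bloc1s1* by 2.15. Between SMF-treated and control cells 6 were higher, among them *Bloc1s1* by 2.32, *Vps11* by 1.98 and *Bloc1s4* by 1.75, and *Ap3m1* was lower, at 17.2 and 23.6 FPKM, a log2 fold change of -1.40 (limma adjusted p = 0.141). The median of this list was 0.52.

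Of 20 genes for transport of granules on microtubules and actin, 18 were tested; 3 rose and 2 fell in control cells, with a median of -0.17. *Klc1*, a kinesin light chain, rose by 2.23, *Ttc39c* by 1.96 and *Capg*, an actin capping protein, by 1.35, while the kinesin gene *Kif1b* fell by 1.36 and *Dock8* by 1.24. In SMF-treated compared with control cells 3 were higher and 0 lower, with a median of 0.57: *Myo5a*, an unconventional myosin, by 1.61, *Kif5b*, the kinesin heavy chain, by 1.19 and *Capg* by 1.11. Of 26 genes for the synthesis of the chains that serglycin carries, with its receptor *Cd44*, 18 were tested, and 1 rose and 1 fell in control cells, with a median of -0.16. *Cd44*, also a marker of activation, rose by 1.56 and *Slc35b3*, a transporter of the sulfate donor, fell by 1.66. In SMF-treated compared with control cells, *Dse* was higher by 1.52, *Cd44* by 1.21 and *B3galt6* lower by 1.41 (log2 fold change -1.41), and the median was 0.44. Each of these medians stands beside -0.05 over all genes for control against unstimulated cells and 0.32 for SMF-treated against control cells, and 0 genes of the 6 lists had an adjusted p of at most 0.05 from limma in the latter comparison.

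**Figure D5:**
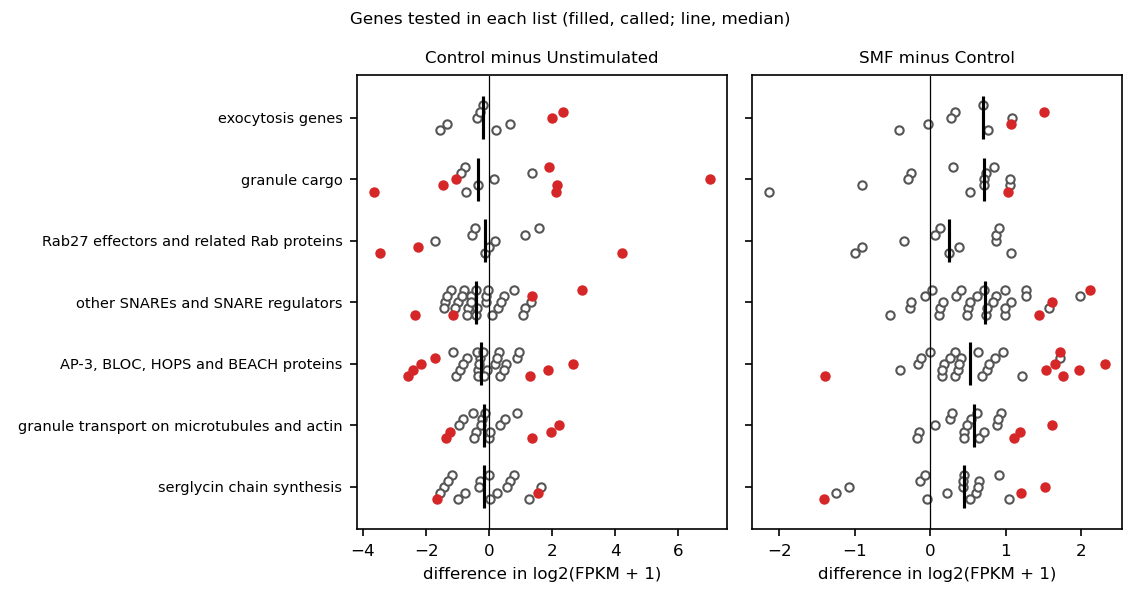
Differences in log2(FPKM + 1) of the exocytosis genes and of the 6 related lists (y axis), with each point a tested gene, filled where it passed both thresholds, and a line at the median of each list. The medians ran from -0.42 to -0.13 for control against unstimulated cells and from 0.25 to 0.73 for SMF-treated against control cells.

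Across the 6 libraries, the genes whose log2(FPKM + 1) followed *Srgn* most closely were *Fbxw8* (Pearson's r = 0.997), *Pno1* (0.996) and *Crnkl1* (0.996), out of 9393 genes whose mean over the libraries reached 5 FPKM. With 6 libraries in 3 groups such values are common, and 1119 genes had an r above 0.9. The libraries differ in depth and date as well as in group, so that the values are a description.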

How the data were processed

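RNA was measured in 6 libraries made from total RNA with a stranded kit. The submitters' processing notes name Trimmomatic 0.36, HISAT2, StringTie and the build mm10; the file headers show StringTie 1.3.5 restricted to the GENCODE M19 annotation of GRCm38 with reads treated as stranded. For each library the authors deposited the FPKM, the TPM and the coverage (mean reads per base) of 137767 transcripts. A deposited table of gene FPKM holds 3 value columns that match no sample and was not used. The files hold no counts and whole reads were not recovered, so depth is given as covered bases (coverage times length), with no counting intervals, and a 0 is only a listing at 0.

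FPKM was summed over the transcripts of each gene. Those averaging 1 FPKM or more over the libraries were fitted as log2(FPKM + 1), all 3 groups in one model with a variance trend, by limma 3.58.1 (R 4.3.3; 3 residual degrees of freedom); p values were adjusted by Benjamini-Hochberg over 14991 genes. Transcript types came from GENCODE M21 (54409 gene identifiers matched, 37 not). Promoter windows are from RefSeq. Exon overlaps were sought with bedtools 2.31.1 and similar transcripts of other genes, over at least 200 aligned bases, with minimap2 2.31, which found 0. Tables were made with pandas 2.3.3 and numpy 2.4.6 under Python 3.11.15, and plots with matplotlib 3.10.9.

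The exocytosis genes and all gene lists were chosen with earlier results of these data known. Beyond these genes, the text names from each related list the 3 largest rises and falls among called genes without overlap. These are for control against unstimulated and SMF-treated against control cells. It also names the gene of each marker list with the highest mean over all libraries and the 3 genes most like *Srgn*. Genes named outside these rules (*Cd8a*, *Lyz2*, *Tyrobp*, *Prf1*, *Rab27b*, *Ap3d1*, *Ap3m2*, *Ap3s2*, *Gapdh*, *Ppia*, *Actb*) were chosen after their values were seen. The marker lists were CD8 T cell, activation, myeloid, B cell, NK cell, CD4 T cell, platelet with mast cell and basophil, erythroid, and housekeeping genes.

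Simulated data for control against unstimulated cells were used to test the fit: of 200 changed among 14991 genes, 97% of those changed 8-fold and 91% of those changed 4-fold were called, as were 4.15% of unchanged genes. Changes were placed only in genes of higher level, and the simulated noise held no differences of date, depth or makeup. These shares therefore do not carry over to low genes such as *Stx11* and *Stx7*. The header dates pair unstimulated and control libraries by replicate number, whereas the deviations of same-numbered libraries correlated across genes with r of 0.10 for these groups, 0.03 for unstimulated and SMF and 0.02 for SMF and control libraries. Alternatives were another pseudocount (0.1), no filter or one at 5 FPKM, TPM, equal medians, an equal protein-coding sum, no variance trend, 2 groups only, a replicate block, adjusted p, leaving out each library and, added after the data were seen, a fixed gene length.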

Additional observations from a re-analysis of the deposited data

Results flagged for a closer look

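For 2 of the 9 exocytosis genes, the log2 fold change against unstimulated cells was called higher with the field than without it, at the unadjusted p. The test is limma's test of SMF-treated against control cells given above, in which the unstimulated libraries cancel. The log2 fold change was higher with the field by 1.51 for *Rab27a* (limma adjusted p = 0.15) and by 1.07 for *Srgn* (limma adjusted p = 0.167). Both SMF libraries exceeded both control libraries in each gene. Of all genes tested 12.5% were called higher and 18.2% in either direction, 0 of the 9 genes passed after adjustment, and *Srgn* lost its call at equal medians (0.73), at an equal protein-coding sum (0.71), without SMF replicate 1 (0.99) and without control replicate 1 (0.94). The field and the date in the file headers cannot be told apart.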

How the results depend on the processing

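Over 17 alternatives per comparison, 420 of 456 values of single genes kept their direction and their side of the thresholds, 11 lost and 13 gained a call and 12 changed sign, and 85 of 102 counts of called genes stayed within 1.5 times. From unstimulated to control cells, the number of exocytosis genes called lower was 1 rather than 0 without a filter, at an equal protein-coding sum and with the replicate block (*Lyst* in each), and the number called higher was 1 rather than 2 with a minimum of 5 FPKM, which leaves *Stx11* out, and by adjusted p; with a library left out, 0 to 1 were lower. For SMF-treated against unstimulated cells 1 gene rather than 0, *Stx7*, was lower without a filter, at equal medians and at an equal protein-coding sum, and 0 to 1 were lower with a library left out. For SMF-treated against control cells 1 gene rather than 2 was higher at equal medians and at an equal protein-coding sum and 0 by adjusted p; with a library left out it was 1 to 4, with 4 without control replicate 2, when *Stxbp2* and *Lyst* were added. The replicate block changed no other call of these genes. Without a filter, limma met many variances of exactly 0, which makes its p values there unreliable.

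Signs changed only for values that were not called. With a library left out, the log2 fold change from unstimulated to control cells ran from -0.46 to 0.093 for *Rab27a* and from -1.07 to 0.47 for *Stxbp2* (without control replicates 2 and 1), and *Stxbp2* was at 0.64 at a fixed gene length. Between SMF-treated and unstimulated cells, *Unc13d* was at -0.16 at an equal protein-coding sum. Between SMF-treated and control cells, leaving out a library gave -0.24 to 1.76 for *Lyst* and -0.15 to 0.10 for *Ap3b1*, which was 0.11 in TPM. At equal medians *Stx11* was at -0.0093 and *Vamp8* at -0.064, at an equal protein-coding sum *Vamp8* was at -0.082, and at a fixed gene length *Stx7* was at 0.26. The causes of these changes were not tested. *Rab27a* in SMF-treated against unstimulated cells lost its call at an equal protein-coding sum (0.85) and, with the fold unmoved at 1.33, without either SMF library.

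Adjusted p values depended strongly on the fit: 1271 genes passed 0.05 from unstimulated to control cells, 6 with the 2 groups alone and 0 without either control library, and 3537 passed for SMF-treated against unstimulated cells but 0 without either SMF library. Of all genes, 857 were lower in SMF-treated than in control cells, but 526 without SMF replicate 1, and 1868 were higher but 841 without it. Depth was lowest in control replicate 1 (64.4 Mb), where *Stx7* rested on 0.202 kb and *Unc13d* on 0.833 kb of covered bases.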

Other observations

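Other marker lists bear on the makeup of the libraries. The 9 activation markers summed to 124 and 131 FPKM in unstimulated, 2180 and 2141 in control and 3053 and 5236 in SMF-treated cells, with *Gzmb* the highest after stimulation but only 10.2 and 11.7 FPKM before it. From unstimulated to control cells 7 of them rose and 0 fell, where 12.3% of all genes rose and 12.6% fell. In SMF-treated against control cells 3 were called higher and 0 lower, where 12.5% of all genes were higher and 5.72% lower. The 4 CD4 T cell markers, led by *Foxp3*, summed to 31.2 and 14.5, 12.8 and 22.8, and 12.8 and 13.5 FPKM in the same groups. The 9 platelet, mast cell and basophil markers summed to 16.1 and 12.0, 0 and 0.0763, and 11.2 and 0.335 FPKM, and 4 of them were at 0 in every library. Their gene with the highest mean, *Cpa3*, had 15.3 and 6.69 FPKM in unstimulated cells but only 0.304 FPKM in SMF replicate 1 and 0 in SMF replicate 2. The 6 erythroid markers summed to 18.3 and 21.8, 5.21 and 7.16, and 10.1 and 1.51 FPKM, most of it *Alas2*, and 3 were at 0 in every library.

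Of 5 genes often used as references, 2 (*Gapdh* and *Ppia*) rose and 0 fell from unstimulated to control cells, where 12.3% of all genes rose and 12.6% fell. *Ppia* had 429 and 494 FPKM with the field against 127 and 239 FPKM without it, a difference that passed both thresholds. *Actb* had 954 and 962 FPKM in unstimulated, 463 and 1208 in control and 1348 and 974 in SMF-treated cells, without a call in any of the 3 comparisons.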
